A study of Mus musculus with 12 samples.

Results

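The genes described here are 10 genes of calcium release from, storage in and return to the sarcoplasmic reticulum of skeletal muscle: Ryr1, Trdn, Jph1, Casq1, Casq2, Atp2a1, Atp2a2, Sln, Pln and Pvalb. They were chosen by gene name, with earlier results of these data known, and all 10 were among the 15344 genes of the deposited tables. RNA was sequenced from quadriceps of 12 mice of 6 months on a C57BL/6 background, in 3 groups of 4 animals: wild-type mice (labelled WT, treatment none), GAA knock-out mice injected with PBS (labelled KO), and GAA knock-out mice injected by tail vein with AAV2/8-LSPhGAApA (labelled AAV). GAA is acid alpha-glucosidase, the lysosomal glycogen-degrading enzyme missing in Pompe disease, and the vector carries human GAA under a liver-specific promoter, so that the muscle receives the enzyme from the blood. Knock-out mice were injected at 2 months of age, the vector at 2e12 vg per kg, and muscle was taken 4 months later. The study's methods describe the treated knock-out mice as male and do not give the sex of the WT mice. Each library is 1 animal, and WT and both knock-out groups also differ in the injection itself.

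In a muscle fibre, depolarisation of the transverse tubule is sensed by a voltage-gated channel that opens the ryanodine receptor of the facing sarcoplasmic reticulum, and the released calcium triggers contraction. Calsequestrin holds calcium inside the reticulum, SERCA pumps return it there, small membrane peptides lower the affinity or efficiency of the pumps, and parvalbumin binds calcium in the cytosol of fast fibres. Fast fibres mainly use SERCA1 and calsequestrin 1, whereas the heart uses SERCA2 and calsequestrin 2, which are also found in slow fibres.

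Values are normalized read counts, that is, reads per gene divided by a size factor for each library. Differences are log2 fold changes ± SE on the log2(normalized count + 1) scale, tested with limma with a trend and Benjamini-Hochberg adjustment over all genes tested, and the call required an adjusted p below 0.05. Between 22122233 and 47379737 reads per library were counted. Gaa, the targeted gene, went against the labels. Its normalized counts were 343, 14640.2, 324 and 460.3 in animals 1 to 4 of WT, 12151, 13075, 11936 and 12895 in the KO animals, and 947, 587, 499.6 and 9854 in the AAV animals. Gaa was thus high in every library labelled KO, in WT animal 2 and in AAV animal 4, and low in the others. The sources used here do not say which part of the gene was altered. Gaa also differed between KO and AAV, both labelled knock-out. Within WT and within AAV, WT animal 2 and AAV animal 4 lay far above the other animals under the same label. Whether labels of groups or animals were exchanged was not tested, and all directions given here refer to the libraries as labelled. GAA activity and glycogen, which the study also measured, were not analysed here. WT animal 3 also stood apart from the other WT animals in several of the 10 genes, and for the 10 genes values without these libraries are given where they end or make a call or move a called value by over 1.5 times. The skeletal muscle markers Acta1, Ckm, Mb and Des summed to between 1669490 and 3127640 normalized counts in every library, most of it Acta1 and Ckm. Acta1, Ckm and Mb were not called in any comparison, whereas Des, the muscle intermediate filament gene, was called lower in KO against WT (-1.03 ± 0.21, adjusted p = 0.00874) and higher in AAV against KO (0.72 ± 0.20, adjusted p = 0.0267). In bulk tissue, fewer fibres of a type and less RNA per fibre cannot be told apart.

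Between the libraries labelled KO and WT, 5 of the 10 genes were called: Sln, Casq2 and Atp2a2 were lower and Pln and Jph1 higher in KO. The background was that 27.6% of 14859 genes tested were called, 15.3% lower and 12.3% higher. Sln, Casq2 and Pln, 3 of the 5, also differed by 1 or more on the log2 scale in either direction, against 13.9% of all genes. For AAV against KO, 4 of the 10 were called: Sln, Casq2 and Trdn were higher and Jph1 lower in AAV, where 26.3% of 14894 genes were called, 12.8% higher and 13.4% lower. Sln and Casq2 differed there by 1 or more on the log2 scale, as did 8.98% of all genes by a call. Between AAV and WT, 0 of the 10 were called by limma, against 1.29% of 14939 genes, and 0 passed by edgeR or DESeq2. At an unadjusted p under 0.05 the count was 0 of 10 by each of the 3 tools. The 3 comparisons share libraries pairwise, so the KO values enter both of the first 2. The 10 genes were chosen with earlier results of these data known, so these counts are only a description. The median log2 fold change of the 10 genes was 0.10 for KO against WT, -0.09 for AAV against KO and -0.12 for AAV against WT, beside 0.02, 0.04 and -0.03 over all genes tested. Their range was far wider, from -5.37 to 1.25 in the first comparison.

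**Figure D1:**
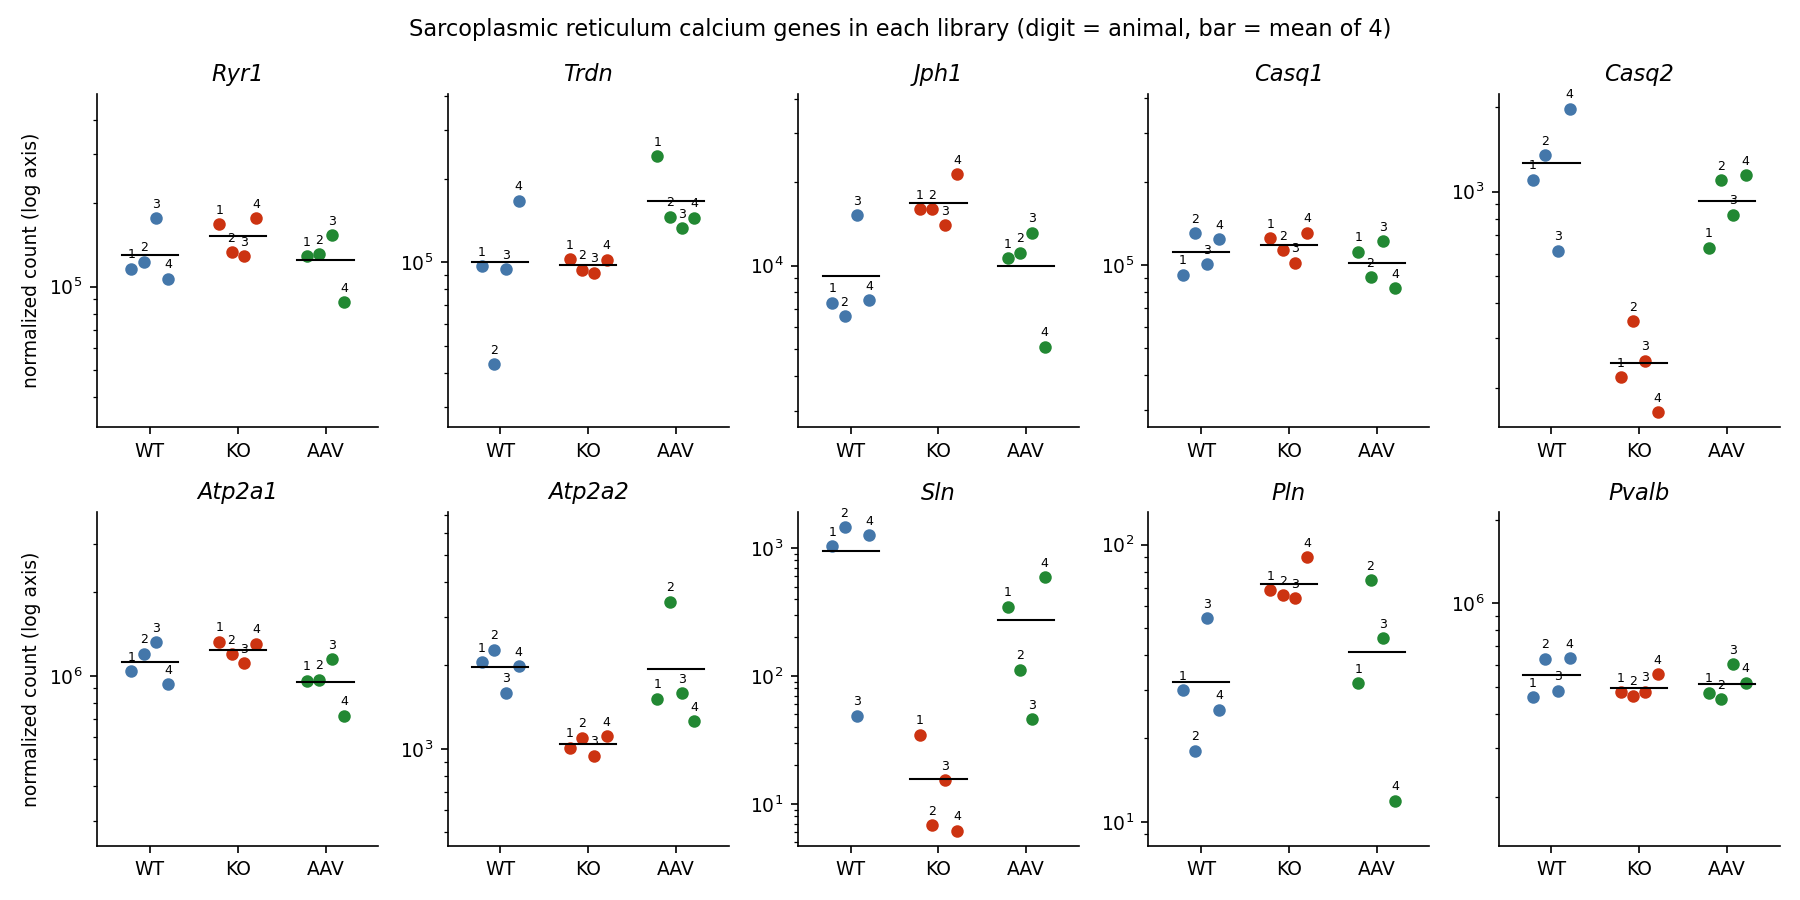
Normalized count (log axis) of each of the 10 genes in the 4 animals of each group, as labelled; points are animals with their number, black bars are means of 4. Casq2, Atp2a2 and Sln lie lowest in KO, and the Sln point of WT animal 3 (48.7) lies far under the other 3 WT animals.

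Set beside each other per kilobase of exon, the 10 genes spanned a wide range of levels. Over the 12 libraries the mean was 499346 normalized counts per kilobase for Pvalb, 317083 for Atp2a1, 56596 for Casq1, 12980 for Trdn, 6220.2 for Ryr1 and 2401 for Jph1. These 6 genes kept this order in the mean of each group. The other 4 were much lower, at 314 for Sln, 296 for Casq2, 272 for Atp2a2 and 17.5 for Pln. Their order differed between the groups: Sln was seventh in WT with 721 per kilobase and last in KO with 11.96. Within WT, the levels per kilobase of Sln (721), Casq2 (461) and Atp2a2 (325) lay close together and were not set apart from each other by the spread of the animals, since Sln in WT animal 3 was lower than either. Atp2a1 lay far above Atp2a2, and Casq1 far above Casq2, in every group.

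Ryr1 (ENSMUSG00000030592, GRCm38 chr7:29003344-29125179, minus strand) encodes the ryanodine receptor, the release channel itself. Its normalized counts were 116062, 122975, 176474 and 106783 in WT, 168475, 133269, 129090.5 and 176589 in KO and 128554, 130732, 153247 and 87784 in AAV. The groups overlapped throughout, with WT animal 3 close to the highest KO animal and AAV animal 4 the lowest of the 12. No comparison of Ryr1 was called: the log2 fold change was 0.23 ± 0.20 (adjusted p = 0.407) for KO against WT and -0.29 ± 0.22 (adjusted p = 0.333) for AAV against KO.

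Triadin, the product of Trdn (ENSMUSG00000019787, chr10:33080554-33476709, plus strand), anchors calsequestrin to the ryanodine receptor. Trdn stood at 96632, 42884, 94479 and 166833 in WT, at 102734, 93939, 91612 and 102039.9 in KO and at 241102, 146151, 133096 and 145143 in AAV. The WT animals were spread on both sides of the narrow KO range, while all 4 AAV animals lay above all 4 KO animals. Trdn rose in AAV against KO by a log2 fold change of 0.73 ± 0.22 (adjusted p = 0.0338), and 14.8% of all genes tested likewise had no overlap and were higher in AAV. This call depended on single animals: it held without AAV animal 2, 3 or 4 but not without AAV animal 1 (0.54, adjusted p = 0.0575) or without any 1 KO animal (highest adjusted p 0.0855), and it was lost in the fit of all 12 libraries (adjusted p = 0.135). Against WT, the log2 fold change of KO was 0.12 ± 0.34 (adjusted p = 0.812) and turned to -0.041 by edgeR and -0.047 by DESeq2.

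Junctophilin 1, from Jph1 (ENSMUSG00000042686, chr1:16964560-17097889, minus strand), bridges the transverse tubule and the sarcoplasmic reticulum membrane. Jph1 was 7359, 6575, 15196 and 7507 in WT, 15959, 15964, 13996 and 21409.8 in KO and 10651, 11131, 13142 and 5102 in AAV. WT animal 3 lay within the KO range and the other 3 WT animals at 7507 or lower, and every AAV animal lay below every KO animal. Jph1 rose in KO by 0.95 ± 0.25 on the log2 scale (adjusted p = 0.023) and fell in AAV against KO by 0.82 (SE 0.27, adjusted p = 0.0496). Without WT animal 3 the first difference was 1.22 (adjusted p = 0.000137), and without WT animal 2 it was 0.82 and no longer called (adjusted p = 0.0647). The first call held in 2 of the 8 fits that left out 1 animal, those without WT animal 3 or KO animal 3, and the second also in 2, those without AAV animal 3 or AAV animal 4 (-0.52 without the latter, adjusted p = 0.0429). The second was also not called by edgeR (-0.77, adjusted p = 0.054), with scaling by total reads (adjusted p = 0.0517), a pseudocount of 0.1 (adjusted p = 0.0513) or no filter (adjusted p = 0.0514), or in the fit of all 12 libraries (adjusted p = 0.0774).

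The calsequestrins differed: Casq2 was called in both comparisons with KO and Casq1 in neither. Casq1 (ENSMUSG00000007122, chr1:172209894-172219868, minus strand), the main form of fast fibres, was 92168, 130291, 100503 and 124082 in WT, 125089, 113358, 101999.6 and 130830.1 in KO and 111808, 90356, 121901 and 82651 in AAV. These ranges overlapped, and the log2 fold changes of 0.08 ± 0.17 (KO against WT, adjusted p = 0.73) and -0.22 ± 0.19 (AAV against KO, adjusted p = 0.384) were not called. Casq2 (ENSMUSG00000027861, chr3:102086415-102146514, plus strand), the cardiac form also found in slow fibres, was 1103, 1350.1, 615 and 1975 in WT, 217, 345, 249 and 164 in KO and 629.8, 1097, 828 and 1146 in AAV. All 4 KO animals lay below all 8 others, and the AAV animals lay inside the WT range. Casq2 fell by 2.30 on the log2 scale in KO against WT (SE 0.34, adjusted p = 0.00224) and rose by 1.93 ± 0.25 in AAV against KO (adjusted p = 0.00188). Both calls held in all 8 fits that left out 1 animal, with the first between -2.60 (without WT animal 3) and -2.04 and the second between 1.76 and 2.12.

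The promoters of this pair are shown because the paralogs differed. Both are the 250 bases before the RefSeq start on GRCm38.p6, read 5′ to 3′ on the gene's strand, and capitals mark matches on either strand to 4 motifs: the E-box CANNTG, MEF2, the CArG box and the NFAT core GGAAA.
Casq2, chr3:102086165-102086414, plus strand: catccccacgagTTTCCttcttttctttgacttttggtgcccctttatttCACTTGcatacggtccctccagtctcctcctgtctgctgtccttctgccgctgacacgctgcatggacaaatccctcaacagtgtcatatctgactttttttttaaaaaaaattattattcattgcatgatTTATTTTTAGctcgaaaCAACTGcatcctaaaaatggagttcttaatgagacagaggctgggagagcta
Casq1, chr1:172219896-172220145, minus strand: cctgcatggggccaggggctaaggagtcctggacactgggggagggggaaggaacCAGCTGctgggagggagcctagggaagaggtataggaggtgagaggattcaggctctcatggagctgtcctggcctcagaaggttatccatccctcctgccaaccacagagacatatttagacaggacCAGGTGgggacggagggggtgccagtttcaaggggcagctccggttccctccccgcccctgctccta
The Casq2 window held 2 E-boxes, 1 MEF2 match starting 69 bases before the start and 1 GGAAA, written as TTTCC. The Casq1 window held 2 E-boxes and no match to the other 3 motifs. Among 32851 mouse promoter windows of this length, 66.2% held an E-box, 55.6% a GGAAA, 2.92% a MEF2 match and 1.47% a CArG box. A MEF2 match was also present in 1 of the 2 listed Pvalb windows, and Pvalb was not called in any comparison. Of the 10 genes, 6 had a promoter entry. Sln, Atp2a2, Trdn and Jph1 had none.

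Among the pumps, Atp2a1 (ENSMUSG00000030730, chr7:126445858-126463108, minus strand), which encodes SERCA1, was 1038968, 1203343, 1323629 and 930775 in WT. KO animals had 1327046, 1196421, 1111500.4 and 1304497, and AAV animals had 960170.3, 967679, 1149407 and 716547. The groups overlapped and neither difference was called, at 0.14 ± 0.23 for KO against WT (adjusted p = 0.655) and -0.40 ± 0.31 for AAV against KO (adjusted p = 0.352), although DESeq2 called the latter (adjusted p = 0.0475). Atp2a2 (ENSMUSG00000029467, chr5:122453513-122502225, minus strand), which encodes SERCA2, was 2049.5, 2280.2, 1596 and 1986 in WT, 1011, 1097, 943 and 1113 in KO and 1519, 3395, 1586 and 1255 in AAV. Every KO animal lay below every other animal, and AAV animal 2 was the highest of all. Atp2a2 fell in KO by 0.92 (SE 0.13, adjusted p = 0.00213), a call held in all 8 fits without 1 animal. Its difference of 0.78 ± 0.26 in AAV against KO just missed the threshold (adjusted p = 0.0502), although the groups did not overlap. It was called without AAV animal 2 (0.48, adjusted p = 0.0283), without AAV animal 3 (0.84, adjusted p = 0.0481), without AAV animal 4 (0.96, adjusted p = 0.027), and by edgeR (0.87, adjusted p = 0.0404) and DESeq2 (0.88, adjusted p = 0.0099) on the recovered reads. Scaling by total reads, a filter at 50 and the fit of all 12 libraries also called it. It was not called in the other 5 fits that left out 1 animal (adjusted p from 0.0773 to 0.107), with TMM scaling (adjusted p = 0.0532), with a pseudocount of 0.1 (adjusted p = 0.0521) or with no filter (adjusted p = 0.052). A fit with the replicate number as a block also gave no call (adjusted p = 0.0558).

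As a share of both SERCA genes per kilobase, Atp2a2 was small everywhere: 0.103% ± 0.0234 (SD, n = 4) in WT, 0.0483% ± 0.00365 in KO and 0.117% ± 0.0559 in AAV. The ranges were 0.0689% to 0.122%, 0.0435% to 0.0524% and 0.0788% to 0.2%, so the KO animals again stood below all others. Casq2 made up 0.784% ± 0.285 (SD, n = 4) of both calsequestrins in WT, 0.151% ± 0.0561 in KO and 0.68% ± 0.282 in AAV. No p-value is given for these ratios, which combine values already tested.

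**Figure D2:**
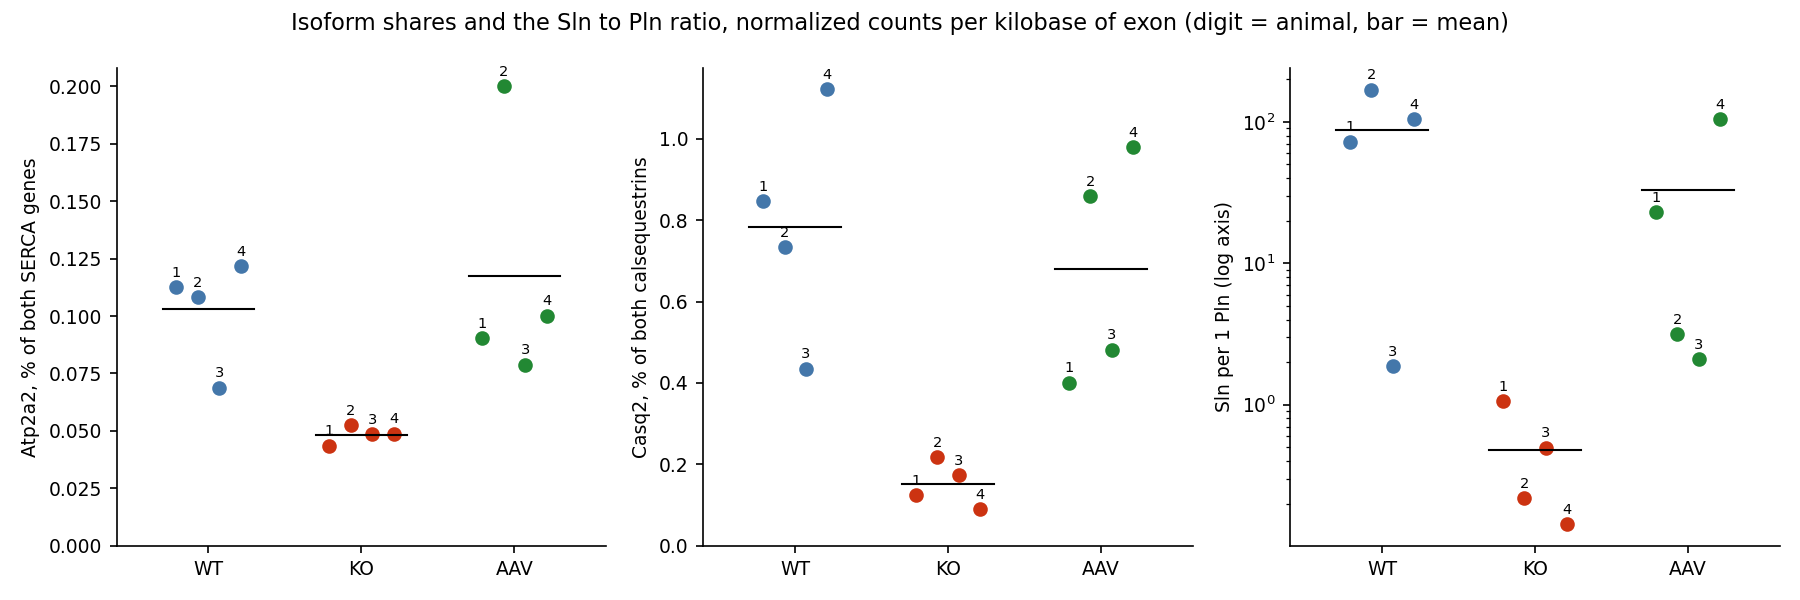
Atp2a2 as a percent of Atp2a1 plus Atp2a2, Casq2 as a percent of Casq1 plus Casq2, and the ratio of Sln to Pln (log axis), all per kilobase of exon, in each animal (points, numbered) with the mean of each group (bars). KO animals lie at 0.0524% or below for Atp2a2, at 0.217% or below for Casq2 and at 1.06 or below for Sln per Pln.

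The pump regulators moved in opposite directions in KO against WT, where Sln fell and Pln rose. Sln (ENSMUSG00000042045, chr9:53850164-53854560, plus strand) encodes sarcolipin and Pln (ENSMUSG00000038583, chr10:53337667-53345987, plus strand) encodes phospholamban, both single-pass membrane peptides that bind SERCA pumps and restrain calcium uptake. Their whole coding sequences on GRCm38 (GENCODE M21) are short, 96 bases for Sln and 159 for Pln, and are shown with the start and stop codons in capitals to let the size of the pair be seen.
Sln, chr9:53853473-53853568, plus strand: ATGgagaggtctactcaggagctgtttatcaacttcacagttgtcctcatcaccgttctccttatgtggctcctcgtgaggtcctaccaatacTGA
Pln, chr10:53343864-53344022, plus strand: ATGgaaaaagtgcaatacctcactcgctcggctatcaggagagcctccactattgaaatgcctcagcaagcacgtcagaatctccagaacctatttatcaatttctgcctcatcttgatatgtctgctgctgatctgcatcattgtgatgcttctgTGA
Both coding sequences lie in single unbroken stretches of the genome, with 31 codons before the stop in Sln and 52 in Pln. Sln was 1034, 1455, 48.7 and 1264 in WT, 34.8, 6.84, 15.2 and 6.19 in KO and 347, 112, 46.1 and 593 in AAV. Every KO animal lay below every other animal, but WT animal 3 and AAV animal 3 lay only just above the highest KO animal, and behind the KO values stood only 7 to 36 reads per library. Sln fell by 5.37 on the log2 scale in KO against WT (SE 1.004, adjusted p = 0.0059), the largest difference of the 10 genes, and rose by 3.76 ± 0.78 in AAV against KO (adjusted p = 0.0102). Both calls held in all 8 fits that left out 1 animal. The first reached -6.53 (adjusted p = 6.43e-06) without WT animal 3 and -4.90 (adjusted p = 0.0209) without WT animal 2. The second was 3.19 (adjusted p = 0.0163) without AAV animal 4. Between AAV and WT the log2 fold change was -1.61 ± 1.12 (adjusted p = 0.468). Without 1 animal it ranged from -2.77 (without WT animal 3, adjusted p = 0.0656) to -0.96 (without AAV animal 3, adjusted p = 0.682), was -2.18 without AAV animal 4, and was called in none of these fits.

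Pln had few reads, 13 to 102 in any library. Its normalized counts were 29.9, 18.1, 54.4 and 25.4 in WT, 68.6, 65.8, 64.2 and 90.2 in KO and 31.7, 74.5, 46.1 and 11.9 in AAV. The KO animals lay above all WT animals, and AAV animal 2 lay inside the KO range. Pln rose by 1.25 ± 0.32 in KO against WT (adjusted p = 0.0186), whereas its difference of -1.05 ± 0.46 in AAV against KO was not called (adjusted p = 0.112). The first call was lost without WT animal 4 (1.18, adjusted p = 0.0521) and without KO animal 4 (1.14, adjusted p = 0.056), and in the fit of all 12 libraries (adjusted p = 0.0608). It was kept without WT animal 2 (1.03, adjusted p = 0.0436) and without WT animal 3 (1.54, adjusted p = 0.00065). The second difference was -0.57 without AAV animal 4 (adjusted p = 0.175) and was called at -1.42 without AAV animal 2 (adjusted p = 0.0364). The sources used here do not say whether the reads were counted by strand, and 59.6% of the exon bases of Pln overlap a transcript on the other strand, Gm47644, and 5.11% overlap Cep85l, so that reads of the partners cannot be told apart without strand. The same holds for 21.9% of the exon bases of Atp2a1, which overlap Rabep2.

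In WT, Sln exceeded Pln per kilobase by 72.5, 169, 1.87 and 104 times in the 4 animals. The KO ratios were 1.06, 0.217, 0.497 and 0.144, so that Pln was the higher of the pair in 3 of 4 animals. AAV animals had ratios of 22.9, 3.14, 2.09 and 104. WT animal 3 was the exception in its group, with a ratio near that of AAV animal 3.

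Parvalbumin, from Pvalb (ENSMUSG00000005716, chr15:78191114-78206400, minus strand), was the most abundant of the 10 per kilobase. Pvalb was 459768, 631682, 483890.3 and 634113 in WT, 477845, 464014, 480988 and 556204 in KO and 477062, 450573, 603926 and 517769 in AAV. The ranges lay on top of each other, and the log2 fold changes were -0.15 ± 0.20 (adjusted p = 0.609), 0.05 ± 0.24 (adjusted p = 0.899) and -0.10 ± 0.27 (adjusted p = 0.862) in the order KO against WT, AAV against KO and AAV against WT.

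**Figure D3:**
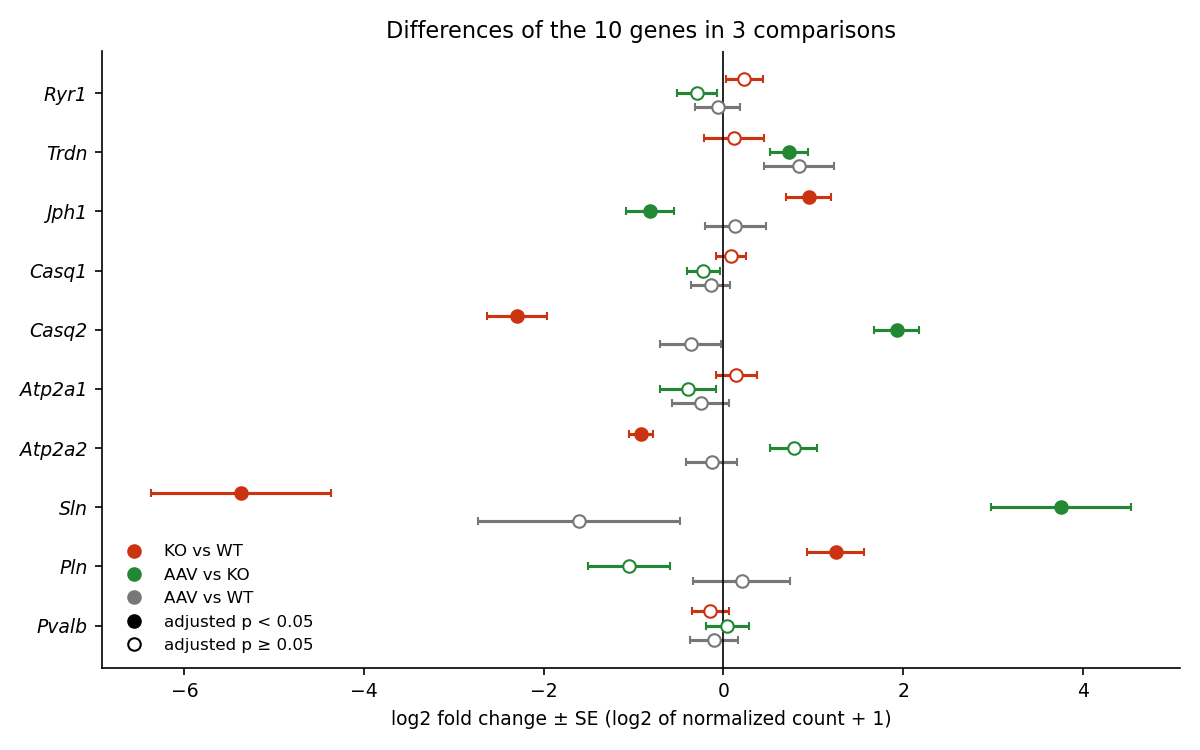
Log2 fold change ± SE of the 10 genes on the log2(normalized count + 1) scale in the 3 comparisons; filled points had an adjusted p under 0.05 (limma, 4 against 4 libraries). Sln (-5.37) and Casq2 (-2.30) lie farthest from 0 in KO against WT, and all 10 points of AAV against WT are open.

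Counting the genes whose 4 animals did not overlap gave 4 of 10 for KO against WT, namely Atp2a2, Casq2 and Sln lower and Pln higher, beside 28.3% of all genes tested (15.1% lower and 13.3% higher). It gave 5 of 10 for AAV against KO, namely Atp2a2, Casq2, Sln and Trdn higher and Jph1 lower, beside 30.6% (14.8% higher and 15.8% lower), and 0 of 10 for AAV against WT, beside 11.7%. In AAV against WT the log2 fold changes of the 10 genes ran from -1.61 (Sln) to 0.85 (Trdn, SE 0.39, adjusted p = 0.286). A call that is missing there does not show that the groups were equal.

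In both comparisons with KO, slow fibre markers moved in the direction of Atp2a2, Casq2 and Sln and against that of Pln and Jph1. Slow fibre markers (8 genes, among them Myh7, Tnni1 and Tnnt1) were all called lower in KO than in WT and all called higher in AAV than in KO. Between AAV and WT 0 of 8 were called, beside 1.29% of all genes, with log2 fold changes from 0.44 to 3.36 and a median of 1.54. Their summed normalized count was 1688 to 5381 in WT, 437 to 515 in KO and 2274 to 24983 in AAV, and no marker was at 0 in any library. The order of the animals was not the same: AAV animal 2 had the highest marker sum and the highest Atp2a2 (3395), but AAV animal 1, with the next highest sum of 12088, had less Atp2a2 (1519) and Casq2 (629.8) than WT animal 1 (2049.5 and 1103), whose sum was 1688. In that WT animal Myh7 (15.4), Myl2 (32.6), Myl3 (15.4) and Myh7b (39.8) were within the KO range or, for Myh7, just above it, while Tnni1 (625, against 6.53 to 15.4 in KO), Tnnt1 (488, against 44.6 to 82.1) and Tnnc1 (170, against 18.5 to 29.95) were far above KO and Tpm3 (302, against 258 to 294) slightly above. Fast fibre markers (8 genes) had 2 called higher and 1 lower in KO against WT, and 1 each way in AAV against KO, beside 27.6% and 26.3% of all genes called. Myh2, the marker of type 2A fibres, was called lower in KO (log2 fold change -1.89) and higher in AAV against KO (2.31). The part of fibre composition in the differences of Atp2a2, Casq2 and Sln was not tested.

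Markers of regenerating and denervated fibres (7 genes: Myh3, Myh8, Myog, Chrng, Chrna1, Runx1 and Ncam1) moved with Sln. All 7 were called lower in KO than in WT, beside 15.3% of all genes. In AAV against KO their log2 fold changes ran from 1.156 to 2.88 and 3 of 7 were called, all higher, beside 12.8% of all genes. Between AAV and WT 0 of 7 were called, beside 1.29% of all genes, with log2 fold changes from -1.13 to -0.58 and a median of -0.85. Their sum was 7662, 9016, 1447 and 8590.2 in WT, 909 to 1309 in KO and 3712, 2027, 1422 and 7624 in AAV. WT animal 3, low in Sln, was also low in this sum, and the 4 AAV animals had the same order in Sln and in the sum. The KO animals did not, with sums of 1309, 1068, 909 and 947 and Sln at 34.8, 6.84, 15.2 and 6.19, on few reads. Of the other cell types, endothelial markers had 3 of 4 called higher in KO against WT, macrophage markers 1 of 5 higher and 2 of 5 lower, smooth muscle markers 1 of 5 higher, and adipocyte markers and nerve and Schwann cell markers none, beside 12.3% of all genes called higher and 15.3% lower, so that 1 of 5 is close to the share over all genes. None of these lists had a call in AAV against KO. Of 5 heart markers, Nppa, Nppb and Myl7 had no values, and Myh6 and Tnni3 were not called in any comparison. The sum of Myh6 and Tnni3 was 24.4 to 213 in WT, 45.1 to 52.2 in KO and 53.2 to 1045 in AAV. What part these other cells have in the values was not tested.

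**Figure D4:**
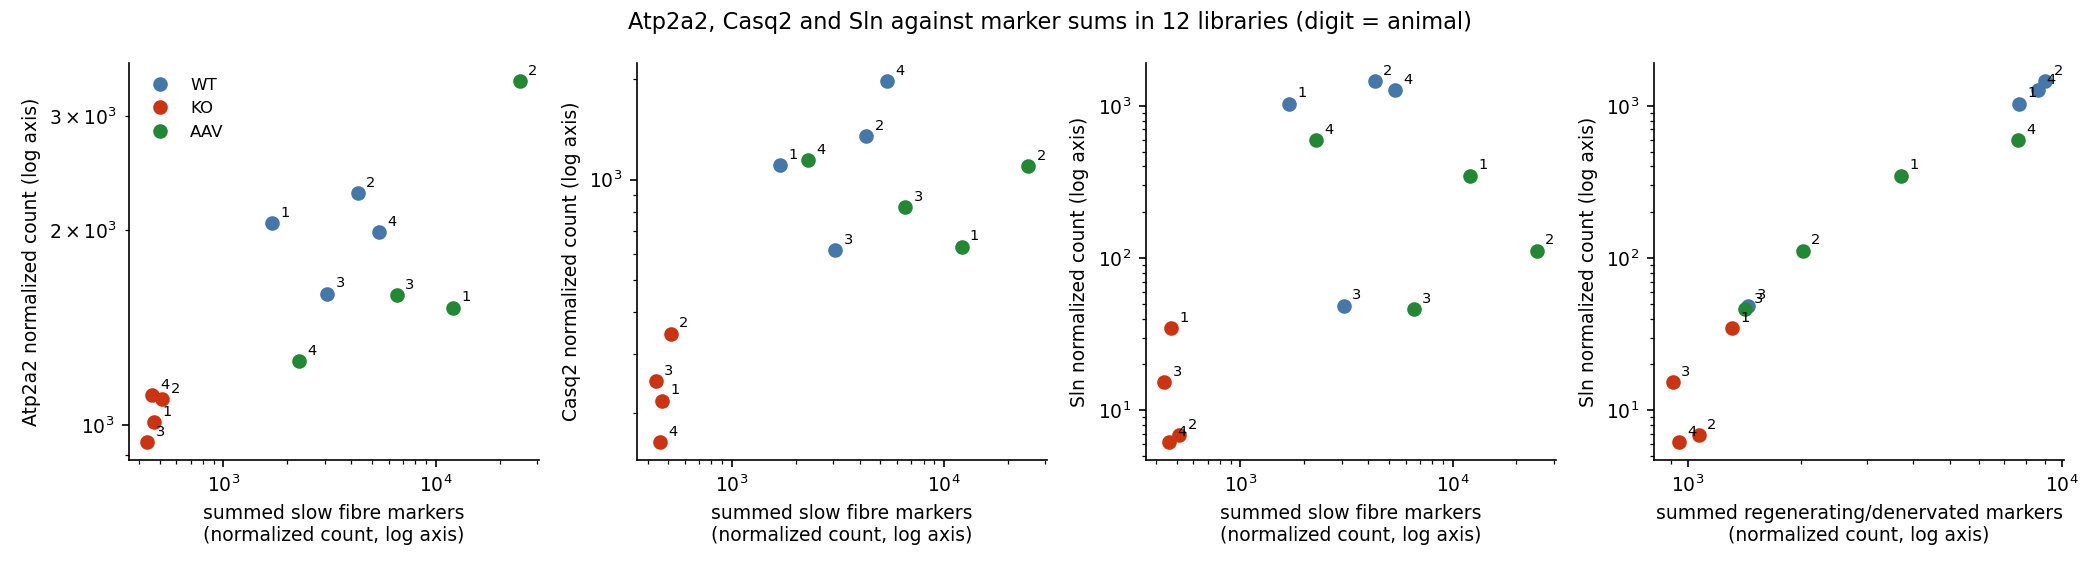
Normalized counts of Atp2a2, Casq2 and Sln against the summed slow fibre markers, and of Sln against the summed regenerating and denervated fibre markers, in 12 libraries (log axes, points numbered by animal). KO animals form the low corner of each panel, and WT animal 3 and AAV animal 3 lie together in the last panel, with sums of 1447 and 1422.

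Genes with the most similar profile over the 12 libraries (Pearson r of log2(normalized count + 1) among 11062 genes with a mean of at least 50, a description without a test) differed between the members. Sln was closest to Tmem8c (r = 0.985), which encodes the fusion protein Myomaker, Mustn1 (0.983) and Ucp2 (0.982). Casq2 was closest to Cox6c (0.959), a subunit of cytochrome c oxidase, Adprhl1 (0.958) and Naprt1 (0.954). Atp2a2 had Bend7 (0.889), Pqlc1 (0.859) and the slow troponin T gene Tnnt1 (0.853) nearest. Jph1 and Pln shared Atl2 (0.98 and 0.967) and Atp8a1 (0.979 and 0.959), with Ubr2 (0.978) next for Jph1 and Pfn2 (0.967) first for Pln. Trdn was closest to Ppig (0.987), Dkc1 (0.979) and Ccdc59 (0.973). Of the genes not called, Ryr1 was closest to 1110032A03Rik (0.955), Eif4b (0.947) and Efcab2 (0.945), Atp2a1 to Dcaf6 (0.948), Cux1 (0.946) and Hsf1 (0.944), Casq1 to Fam219a (0.85), Slc37a4 (0.845) and Rrp8 (0.824), and Pvalb to Aamdc (0.953), Il4i1 (0.855) and Snx11 (0.852). The 12 libraries share 3 groups, so genes that differ between the groups can correlate through the groups alone.

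Other genes of calcium handling were drawn from 10 lists with 76 genes, of which 73 were in the tables and were tested. In KO against WT, 25 of 73 were called, 13 higher and 12 lower, with 27.6% of all genes called. In AAV against KO, 25 of 73 were called, 11 higher and 14 lower, with 26.3% of all genes called. Their median log2 fold change was 0.06 and -0.08 in these comparisons, beside 0.02 and 0.04 for all genes. Between AAV and WT, 3 of 73 were called, all higher: Itpr3 (0.94), Atp2a3 (1.36) and Nfatc4 (0.84), beside 1.29% of all genes called and 0.951% called higher. The count was 0 in 6 of the 8 fits that left out 1 animal and 0 with no filter, 1 without AAV animal 4 and 4 without WT animal 3. Itpr3 and Nfatc4 are named here because the count is small, after their values were seen.

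Of the voltage sensor complex, Cacna1s, the pore and voltage-sensing subunit, was not called (KO against WT -0.13 ± 0.17, adjusted p = 0.592, and AAV against KO -0.22 ± 0.16, adjusted p = 0.308). Of its partner subunits, Cacnb1 and Cacng1 were. Cacnb1 fell by 1.40 in KO (SE 0.22, adjusted p = 0.00275) and rose by 0.91 ± 0.17 in AAV against KO (adjusted p = 0.00796). Cacng1 fell by 1.26 (SE 0.33, adjusted p = 0.0207) and rose by 1.03 ± 0.23 (adjusted p = 0.0129). Cacna2d1 was not called in either comparison (0.49 and -0.39), although it was in KO without WT animal 3 (0.71, adjusted p = 0.0205), and Stac3, the adaptor that couples the sensor to the release channel, rose by 0.60 ± 0.12 in KO (adjusted p = 0.00733) and was at -0.39 in AAV against KO (adjusted p = 0.123). The call of Cacng1 in KO held in 3 of 8 fits that left out 1 animal, and was lost among others without WT animal 2 or 4.

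**Figure D5:**
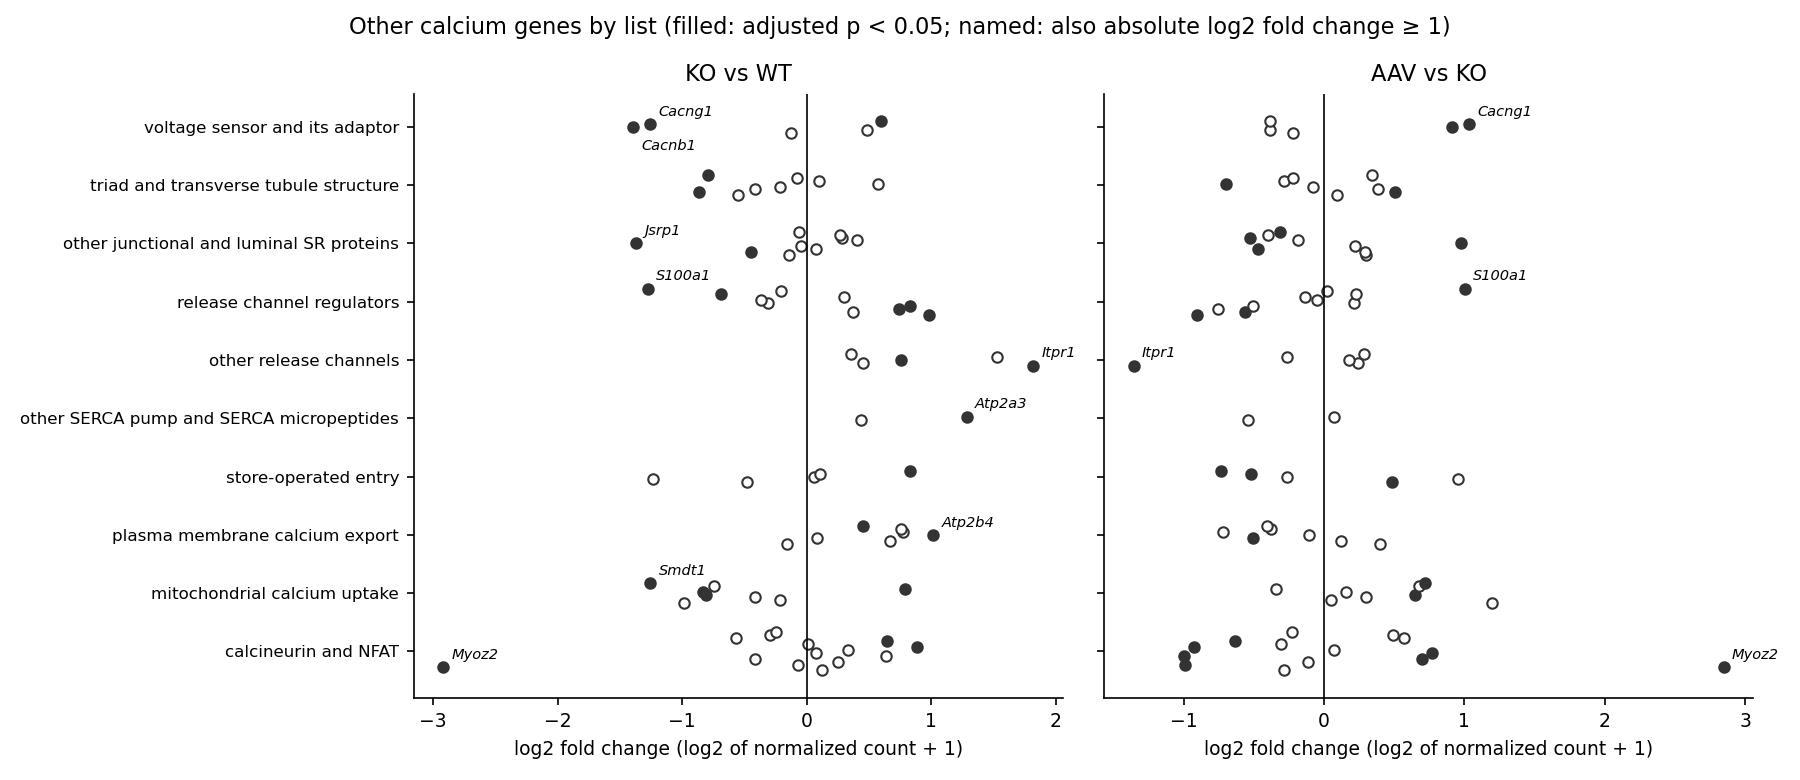
Log2 fold changes of the 73 other calcium genes by list, KO against WT on the left and AAV against KO on the right; filled points had an adjusted p under 0.05 and named genes also lay at -1 or below or at 1 or above. Myoz2 lies farthest from 0 in both panels, at -2.92 and 2.85, and points of most lists fall on both sides of 0.

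Around the release unit, Jsrp1, which encodes a junctional protein of the reticulum that binds the voltage sensor, fell by 1.37 in KO (SE 0.29, adjusted p = 0.00958) and rose by 0.97 ± 0.29 in AAV against KO (adjusted p = 0.0351), the latter called in 4 of 8 fits that left out 1 animal. S100a1, a calcium-binding protein that acts on the ryanodine receptor, fell by 1.28 (SE 0.20, adjusted p = 0.00289) and rose by 1.003 ± 0.14 (adjusted p = 0.00301). Itpr1, the inositol trisphosphate receptor, went the other way, with a rise of 1.82 ± 0.34 in KO (adjusted p = 0.00609) and a fall in AAV against KO of -1.36 ± 0.25 (adjusted p = 0.00716). The release channel regulators as a list had 3 called higher and 2 lower of 10 in KO against WT, and the triad and transverse tubule genes 0 higher and 2 lower of 8. In AAV against KO these lists had 1 higher and 2 lower, and 1 higher and 1 lower. Over all genes 27.6% were called in the first comparison and 26.3% in the second, and the 2 of 8 triad genes are near both shares.

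Of the other calcium pumps, Atp2a3, which encodes SERCA3, the reticulum pump of non-muscle cells, rose in KO by 1.29 ± 0.24 (adjusted p = 0.00635), was at 0.07 ± 0.19 in AAV against KO and stood 1.36 ± 0.26 above WT in AAV (adjusted p = 0.0467). The last call held in 2 of 8 fits that left out 1 animal. Atp2b4, a calcium pump of the plasma membrane, rose by 1.02 ± 0.24 in KO (adjusted p = 0.0148) and was at -0.11 in AAV against KO (adjusted p = 0.699). In KO against WT, 3 of 4 endothelial and 1 of 5 smooth muscle markers were also called higher, beside 12.3% of all genes. Neither list had a call in AAV against KO or AAV against WT. The part of these cells in the pump values was not tested. Smdt1, the EMRE subunit of the mitochondrial calcium uniporter, fell by 1.26 (SE 0.21, adjusted p = 0.00405) and rose by 0.72 ± 0.17 (adjusted p = 0.0159). Mitochondrial uptake genes had 1 of 8 called higher and 3 lower in KO, and 2 higher and 0 lower in AAV against KO. Over all genes 12.3% were called higher and 15.3% lower in KO, and 26.3% were called in AAV against KO, so that 1 of 8 higher and 2 of 8 called are near these shares. Myoz2, which encodes the calcineurin-binding Z-disc protein calsarcin 1 of slow and cardiac muscle, fell by 2.92 (SE 0.49, adjusted p = 0.00405) and rose by 2.85 ± 0.52 (adjusted p = 0.00675). The calcineurin and NFAT list had 2 called higher and 1 lower, Myoz2 itself, of 14 in KO against WT, and 3 higher, with Myoz2 among them, and 4 lower in AAV against KO.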

How the data were processed

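RNA-Seq of quadriceps from 12 mice was used, and the human myobundle libraries of the study were not analysed here. The authors trimmed reads with Trim Galore 0.4.1, required 20 nt after trimming, aligned to GRCm38 with STAR, used uniquely placed reads, ran HTSeq 0.6.1 for gene counts and dropped genes that nowhere reached 10 reads. For the deposited signal values, the authors divided each library's counts by 1 DESeq2 (1.16.1) size factor. Every deposited value was a whole number of reads within 0.1 read after division by the library's step, so depth is known. The 2 deposited tables also carry the authors' test results (log2 fold change, standard error, a Wald score, p-value and adjusted p-value), and none of these was used. The KO values differed by 0 between the tables, so all libraries are on 1 scale. Of the per-sample columns, 0 were unused.

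The main test was limma 3.58.1 with a trend on log2(value + 1), for genes that reached 10 in 1 or more of the 8 libraries in a comparison. An edgeR main test was planned only for raw counts, which the deposited values were not. edgeR 4.0.16 and DESeq2 1.42.0 (R 4.3.3) on recovered reads were alternatives, beside scaling, filter, pseudocount, replicate block, 1 fit of 12 libraries and leaving out each animal. The scripts were tested on simulated data. Gene positions and exon lengths came from GENCODE M21 on GRCm38, promoters from RefSeq on GRCm38.p6, and 15186 of 15344 identifiers matched. GENCODE M21 is not the annotation the authors counted on, so levels per kilobase are approximate. Python 3.11.15 with pandas 2.3.3, numpy 2.4.6 and matplotlib 3.10.9 was used for tables and plots.

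The members and lists were chosen with earlier results of these data known. Named genes were the 10 members, Gaa, genes of the 10 calcium lists called with a log2 fold change of 1 or more in size in any comparison and a mean of at least 50, all genes of the voltage sensor list, and for each member the 3 genes with the highest correlation. Replicate numbers follow the labels and stand for different animals.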

Additional observations from a re-analysis of the deposited data

Results flagged for a closer look

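In a group of 4, an animal was flagged when its gap to the nearest other animal took up most of the group's range (Dixon's 95% criterion). Chance flags about 1 in 20 groups, and 6 of 69 groups tested were flagged. Atp2a2 was 3395 in AAV animal 2, with the others at 1255 to 1586. That animal also had the highest slow fibre marker sum (24983). Pln was 90.19 in KO animal 4, with the others at 64.2 to 68.6, a gap that rests on few reads. Trdn was 241100 in AAV animal 1, with the others at 133096 to 146151. Jph1 was 15200 in WT animal 3, with the others at 6575 to 7507. Gaa was 14640 in WT animal 2, with the others at 324 to 460.3, and 9854 in AAV animal 4, with the others at 499.6 to 947. The causes of these gaps were not tested.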

How the results depend on the processing

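The calls of Sln, Casq2 and Atp2a2 in KO against WT, and of Sln and Casq2 in AAV against KO, held under every alternative. No paired samples exist, since equal replicate numbers are different animals, and the deviations of same-numbered animals correlated from -0.355 to 0.554. With the replicate block, AAV against KO had 2179 genes called in place of 3910, 2 of the 10 members (Trdn and Jph1 were lost) and 14 of the other calcium genes in place of 25. Leaving out 1 animal, KO against WT had 2353 to 7163 genes called (the highest without WT animal 3), 1332 to 3238 with the fold threshold, 3 to 5 members and 19 to 45 other calcium genes. AAV against KO had 1961 to 5071, 787 to 1966, 2 to 5 and 13 to 37. AAV against WT had 18 to 442 (the highest without WT animal 3), 18 to 330, 0 members and 0 to 4. Without both WT animal 2 and AAV animal 4 it had 10, 10 with the fold threshold and 0 calcium genes. In place of 193 genes called between AAV and WT, DESeq2 gave 935 (417 with the fold threshold and 6 calcium genes), scaling by total reads 319 (250 with the fold threshold), no filter 127 (0 calcium genes) and the fit of all 12 libraries 892 (397 with the fold threshold, 7 calcium genes).

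Signs turned for some values, none of them called. Not all of these lay near 0, since Gaa was 0.47 ± 1.30 in AAV against WT. KO against WT, Trdn was -0.041 by edgeR and -0.047 by DESeq2, and ranged from -0.24 to 0.41 without 1 animal, and Casq1 from -0.0034 to 0.16. AAV against KO, Pvalb ranged from -0.037 to 0.10, Atp2a3 from -0.037 to 0.22 and Atp2b4 from -0.23 to 0.051, which was 0.060 with scaling by total reads. That scaling moved the median of all genes to 0.20 in this comparison and 0.12 in AAV against WT, where it gave Ryr1 0.089, Atp2a2 0.020, Casq1 0.013, Pvalb 0.050 and Myoz2 0.080. By edgeR, AAV against WT was -0.34 for Gaa and 0.015 for Myoz2. Without WT animal 2 and AAV animal 4 it was 0.079 for Ryr1, 0.11 for Atp2a2, 0.033 for Casq1, -0.053 for Cacna2d1 and 0.16 for Myoz2. Without 1 animal it ranged from -0.17 to 0.098 for Ryr1, -0.44 to 0.039 for Atp2a2, -0.17 to 0.68 for Pln, -0.027 to 0.43 for Jph1, -0.51 to 1.79 for Gaa, -0.19 to 0.32 for Cacna2d1 and -0.40 to 0.18 for Myoz2. The causes were not tested. Depth limits Pln and, in KO, Sln, with few reads each.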
